A study of Homo sapiens with 36 samples.

Results

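The regions described here were the broad H3K4me3 domains of A549 cells, defined as H3K4me3 peaks on chromosomes 1 to 22, X and Y that were at least 4000 bp wide from start to end. There were 867 such domains among 32801 A549 H3K4me3 peaks, which was 2.64% of the peaks and 10.7% of the base pairs they covered (4.44 of 41.5 Mb). The width itself chose the domains, so width and H3K4me3 enrichment in A549 are given as a description with no test, and the comparisons rest on other targets and on the other cell line.

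H3K4me3 is a histone modification laid down on nucleosomes around active and poised gene starts, usually as a short patch on both sides of the start. A small share of genes carries it as a wide patch that runs into the gene body, and such broad patches are known for marking genes with roles in cell identity and highly transcribed genes. RNA polymerase II (pol II) is the enzyme that transcribes protein-coding genes. Jun, JunB and JunD are the Jun family members of AP-1, a dimeric transcription factor that binds the 7-base palindrome TGAGTCA and answers to growth factor and stress signals.

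The study compared 2 human lung cell lines without treatment. A549 is a lung adenocarcinoma line derived from 1 tumour, and B2B (BEAS-2B) is a bronchial epithelial line that was immortalised with viral genes and stands in for the non-malignant state, so the contrast is between 2 lines and not between groups of patients. In the samples used here, chromatin from each line was immunoprecipitated (ChIP-seq) for H3K4me3, H3K27ac, the Mediator subunit Med1, pol II, JunB, Jun and JunD, and in B2B also for CTCF and the cohesin subunit Rad21. The paper reports CTCF and Rad21 in A549 too, but these samples do not include them. The 36 libraries formed 18 groups of 2 replicates, 4 of the libraries being inputs, and each deposited peak list pooled the 2 replicates of its target. There was therefore 1 list per target and line, no spread between replicates could be computed, and no p-values are given. All intervals below are 95% intervals over domains or summits (Wilson for a share, Newcombe for a difference of shares); they cover counting error only, and domains are not replicates of a condition. The read depth behind the lists is unknown.

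The lists were not alike in ways that bear on the values below. The A549 pol II list ended early on chromosome 20, so A549 pol II is given over chromosomes 1 to 19, and H3K27ac and Med1 are given over chromosomes 1 to 12. The A549 JunB list held 28068 peaks and the B2B JunB list 8563, the Jun lists 35602 and 45047, and the JunD lists 9639 and 8597. The A549 pol II list held 45938 peaks up to its end on chromosome 20, and the B2B pol II list 25234 over all chromosomes. In the B2B H3K4me3 list, peaks over the domains had a median fold enrichment of 3.02 and a local background of 13.8 times the lowest in that list, whereas the domains themselves had a median fold enrichment of 36.5 and a background of 1.54 times the lowest in the A549 list. The part of these backgrounds in the differences of peak width between the lines was not tested. The epithelial markers KRT8, KRT18, KRT7, CDH1 and EPCAM all had an A549 H3K4me3 peak within 500 bp of their start and 4 of the 5 had one in B2B (EPCAM did not). The mesenchymal markers VIM and ZEB1 had one in both lines, and the alveolar markers SFTPC and SFTPB had none in either. Of 3 genes at the chromosome 9 deletion known in A549, CDKN2A and CDKN2B were marked in B2B alone and MTAP was marked in both lines.

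Both sets of sequences below are shown because results turn on them. The first set holds AP-1 sites under A549 Jun family summits in named domains, so that a reader can see where inside the domain the palindrome lies. Of 13 searched domains that had been named for lacking B2B H3K4me3 or for the strongest Jun family peaks, 6 had TGAGTCA or its reverse complement TGACTCA within 50 bp of an A549 Jun family summit and outside exons. The domain at TRIB1, which had the highest summed Jun family fold enrichment, was not searched. They are printed on the plus strand of hg38 with the palindrome in capitals: CYP24A1 chr20:54166026-54166072, CPLX2 chr5:175866716-175866762, TRNP1 chr1:26999065-26999111, TAGLN2 chr1:159924618-159924664, KRT80 chr12:52192354-52192400 and ANXA2 chr15:60397172-60397218.
CYP24A1: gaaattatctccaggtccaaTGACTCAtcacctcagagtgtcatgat
CPLX2: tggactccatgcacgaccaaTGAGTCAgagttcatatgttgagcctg
TRNP1: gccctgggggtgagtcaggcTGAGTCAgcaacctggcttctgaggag
TAGLN2: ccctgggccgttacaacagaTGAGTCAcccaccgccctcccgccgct
KRT80: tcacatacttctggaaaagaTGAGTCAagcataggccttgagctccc
ANXA2: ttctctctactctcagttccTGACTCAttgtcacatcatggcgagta

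The sites in CYP24A1, TRNP1, TAGLN2 and ANXA2 lay 7937, 5396, 866 and 791 bp downstream of the coding start, and those in CPLX2 and KRT80 lay 4839 and 363 bp upstream of it. The KRT80 site was under a Jun peak that crossed the edge of the domain and lay just outside it. B2B JunB and Jun peaks covered the TAGLN2 and KRT80 sites, and no B2B Jun family peak covered the other 4. The TRNP1 stretch holds a further copy of TGAGTCA in lower case, and the copy in capitals is the one 3 bp from the Jun summit.

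The second set shows what the starts of domains without B2B H3K4me3 look like. It holds the 150 bases before the RefSeq start (GRCh38.p14) of those named genes whose RefSeq and GENCODE starts coincided, on the gene's own strand and with CpG in capitals: ALDH1A1 chr9:72953054-72953203 on the minus strand, AKR1C2 chr10:5003858-5004007 on the minus strand, ELF3 chr1:202010437-202010586 on the plus strand, TRNP1 chr1:26993542-26993691 on the plus strand and ZIC2 chr13:99981634-99981783 on the plus strand. AKR1B10 and CYP24A1 are named only.
ALDH1A1: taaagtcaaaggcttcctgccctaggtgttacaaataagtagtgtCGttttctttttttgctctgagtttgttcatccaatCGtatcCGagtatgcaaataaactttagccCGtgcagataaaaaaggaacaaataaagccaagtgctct
AKR1C2: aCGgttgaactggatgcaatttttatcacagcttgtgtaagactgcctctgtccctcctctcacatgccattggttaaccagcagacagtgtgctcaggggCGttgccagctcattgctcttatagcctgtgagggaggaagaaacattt
ELF3: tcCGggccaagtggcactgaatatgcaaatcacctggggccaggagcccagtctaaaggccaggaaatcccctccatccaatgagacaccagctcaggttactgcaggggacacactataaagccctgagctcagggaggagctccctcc
TRNP1: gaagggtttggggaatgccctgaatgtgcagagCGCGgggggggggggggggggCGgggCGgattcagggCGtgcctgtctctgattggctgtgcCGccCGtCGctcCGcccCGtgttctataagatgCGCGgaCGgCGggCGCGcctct
ZIC2: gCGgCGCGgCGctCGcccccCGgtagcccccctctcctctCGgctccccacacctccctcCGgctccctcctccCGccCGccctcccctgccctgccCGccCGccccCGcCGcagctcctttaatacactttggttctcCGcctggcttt

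These stretches held 4, 2, 1, 16 and 15 CpG, against a median of 7 over 35116 RefSeq promoters of the same length, so the domains without B2B H3K4me3 included starts poor in CpG as well as CpG-dense starts. None of the 5 held TGAGTCA on either strand, which 2.89% of all those promoters did.

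The domains were between 4001 and 15138 bp wide, with a median of 4746 bp, against a median of 863 bp over all A549 H3K4me3 peaks. They were not more enriched than narrower promoter peaks: the median fold enrichment was 36.5 in the domains and 36.9 in the 7120 peaks of at least 2000 but under 4000 bp, which are called mid-width peaks below and serve as the comparison class. There were 335 domains of at least 5000 bp, 25 of at least 8000 bp and 8 of at least 10000 bp. The members just inside the threshold, at RBM26 and at STAG3L5P near PILRB, were 4001 bp wide, and the peaks just outside, at PRR12 and EEIG1, fell short of it by at most 4 bp.

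**Figure D1:**
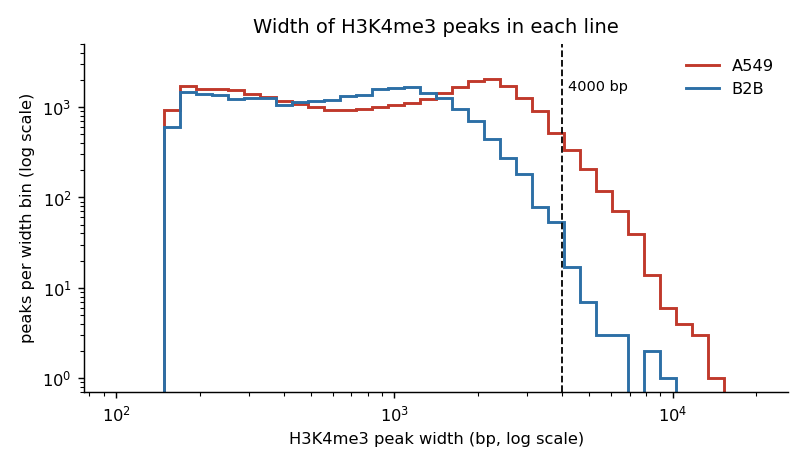
Number of H3K4me3 peaks (log scale) by peak width in bp (log scale) in A549 (red) and B2B (blue), with the 4000 bp threshold as a dashed line. The A549 list reaches 15138 bp and has 867 peaks at or above the threshold, while the B2B list reaches 9085 bp and has 39.

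The widest domain lay at SLC7A5, which encodes a transporter of large neutral amino acids. It spanned chr16:87854432-87869569 (15138 bp), began 62 bp before the coding start and ran 15075 bp into the gene. The domain at SIK1, a salt-inducible kinase, was 12298 bp wide and reached 12279 bp downstream, and a second domain of 12925 bp at chr21:6111136-6124060, where no coding start is annotated, was 99.9% identical to it over 12275 aligned bp. Reads from these copies cannot be told apart by sequence, so the widths at both are uncertain. The domain of 12194 bp at chr12:104286609-104298802 held a non-canonical start of TXNRD1, thioredoxin reductase, whose canonical start lay elsewhere in a peak of 1408 bp. The list of the 10 widest went on with NR3C1, the glucocorticoid receptor (11259 bp), TGIF1, a homeobox repressor in TGF-beta signalling (11025 bp), ALDH1A1, a retinaldehyde dehydrogenase (10541 bp), CYP24A1, the vitamin D 24-hydroxylase (10339 bp), the nuclear long non-coding RNA MALAT1 (9654 bp) and a domain with the start of LINC00602 and a non-canonical start of the phosphodiesterase gene PDE10A (9208 bp).

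Most domains lay over the start of a single coding gene and ran into it. Of the 867 domains, 786 held the canonical start of at least 1 protein-coding gene in GENCODE release 44, 930 genes in all. Of these, 655 held 1 start, 119 held 2 (90 of them in divergent orientation) and 12 held 3 or more. Among the other 81 domains, 45 held another start of a coding gene, 21 held the start of a long non-coding RNA and 15 held neither. The widest domains with no annotated start of any gene within 1 kb were 5938 bp at chr21:6368400-6374337, 5539 bp beside TCHH, 5509 bp on chromosome 12 far from any coding gene, 5157 bp at chr9:72939469-72944625 and 5139 bp beside SLCO1B3-SLCO1B7. The last but 1 of these lies inside ALDH1A1, next to that gene's own domain, so the H3K4me3 of ALDH1A1 was split into more than 1 broad peak.

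From the start, domains with 1 coding start reached a median of 3424 bp downstream (quartiles 2737 and 4197 bp) and 1438 bp upstream (quartiles 904 and 2047 bp). Mid-width peaks reached 1617 and 909 bp. The lean towards the gene was common to both classes: 86.7% of the domains and 87.0% of the mid-width peaks were longer downstream than upstream (difference -0.23 points, interval -3.18 to 2.33). The domains thus extended further on both sides, with no detectable change in how often the longer arm lay in the gene. Starts in domains met the criteria of a CpG island (at least 55% G+C and an observed to expected CpG ratio of at least 0.65 over 500 bp) less often than starts in mid-width peaks, at 84.0% against 91.3% (difference -7.37 points, interval -10.2 to -4.86).

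A549 pol II was present on nearly all domains. On chromosomes 1 to 19, 801 of 803 domains overlapped an A549 pol II peak, against a background of 66.5% of all A549 H3K4me3 peaks. The exceptions, named after their values were seen, were the domains at BCL11A (4649 bp) and GFI1 (4404 bp), both genes of transcriptional repressors of the blood lineages. Within 500 bp of the coding start, pol II was found at 99.0% of starts in domains and 98.5% of starts in mid-width peaks (difference 0.50 points, interval -0.54 to 1.11), so the classes did not separate by presence of pol II at the start.

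They differed more in how far pol II reached. The profile around coding starts shows that at 1 kb into the gene 72.7% of the domain starts and 32.9% of the mid-width starts lay under an A549 pol II peak, at 3 kb 39.8% and 7.75%, and at 5 kb 30.2% and 8.20%. A median of 63.2% of a domain was covered by A549 pol II peaks (quartiles 48.8% and 82.5%), against 54.5% of a mid-width peak, and 41 domains were covered fully. The domains with the longest pol II coverage were SLC7A5, where pol II covered 96.8% of 15138 bp, the TXNRD1 domain (100% of 12194 bp), TGIF1 (88.2% of 11025 bp) and MALAT1 (100% of 9654 bp). In B2B, a median of 21.1% of the same domains on chromosomes 1 to 19 was covered by pol II peaks, against 20.2% of a mid-width peak. By fixed distance, B2B pol II also reached further at domain starts, here over all chromosomes. At 1 kb into the gene it covered 23.4% of domain starts and 12.2% of mid-width starts. The shares were 8.55% and 1.21% at 3 kb, and 7.02% and 1.47% at 5 kb.

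**Figure D2:**
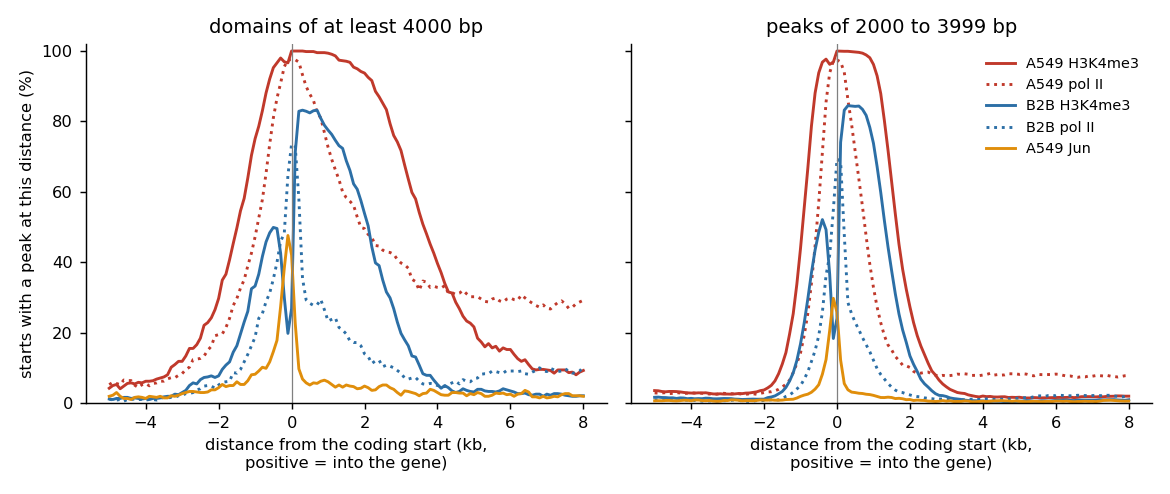
Share of coding starts (%) that have a peak of each list at a given distance in kb from the start, positive into the gene, for the 655 domains (left) and 5295 mid-width peaks (right) with 1 coding start; red is A549 and blue B2B, solid H3K4me3 and dotted pol II, and orange is A549 Jun. In domains, A549 H3K4me3 still covers 71.8% of starts at 3 kb and A549 pol II 39.8%, while B2B H3K4me3 is highest at 83.2% at 300 bp, dips to 26.9% at the start itself and falls to 19.8% at 3 kb.

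H3K27ac, a mark of active promoters and enhancers, was near saturation in both classes, at 98.5% of domain starts and 99.3% of mid-width starts on chromosomes 1 to 12 (difference -0.79 points, interval -2.20 to -0.019). Med1, a subunit of the Mediator complex that links transcription factors to pol II, was found at 93.6% and 86.6% (difference 7.08 points, interval 4.51 to 9.14). Over whole domains on those chromosomes, H3K27ac and Med1 peaks of A549 overlapped 99.2% and 97.2% of the 605 domains (backgrounds 65.3% and 41.5% of all A549 H3K4me3 peaks), and those of B2B 90.2% and 90.6% (backgrounds 43.7% and 41.9%). Over whole mid-width peaks the A549 shares were 99.0% and 86.9%, and the B2B shares 90.8% and 89.1%. At starts, the B2B difference between the classes was -3.26 points for H3K27ac (-6.17 to -0.86) and -2.46 for Med1 (-5.54 to 0.15). Against the narrower comparison class of 3000 to under 4000 bp, an alternative chosen after seeing the data, the difference for A549 Med1 at starts was 2.06 points. Its interval ran from -0.76 to 4.60, so the excess over the closest widths was not detectable.

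Jun family peaks were more frequent at the starts of domains than at those of mid-width peaks in A549. Within 500 bp of the coding start, JunB was found at 54.6% of starts in domains and 35.5% in mid-width peaks (difference 19.1 points, interval 15.4 to 22.7), Jun at 59.8% and 41.1% (18.7 points, 15.0 to 22.3) and JunD at 40.7% and 23.5% (17.2 points, 13.6 to 20.8). These windows had the same length in both classes, so the wider domain gave no more room for a peak. Against peaks of 3000 to under 4000 bp the differences were smaller, at 9.23 points (JunB, 4.93 to 13.5), 7.98 points (Jun, 3.70 to 12.2) and 8.77 points (JunD, 4.62 to 12.9), and all 3 intervals stayed above 0. The JunB, Jun and JunD shares rose with width from class to class: JunB, for example, went from 5.04% of starts in peaks under 1000 bp to 59.1% in domains of at least 5000 bp.

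**Figure D3:**
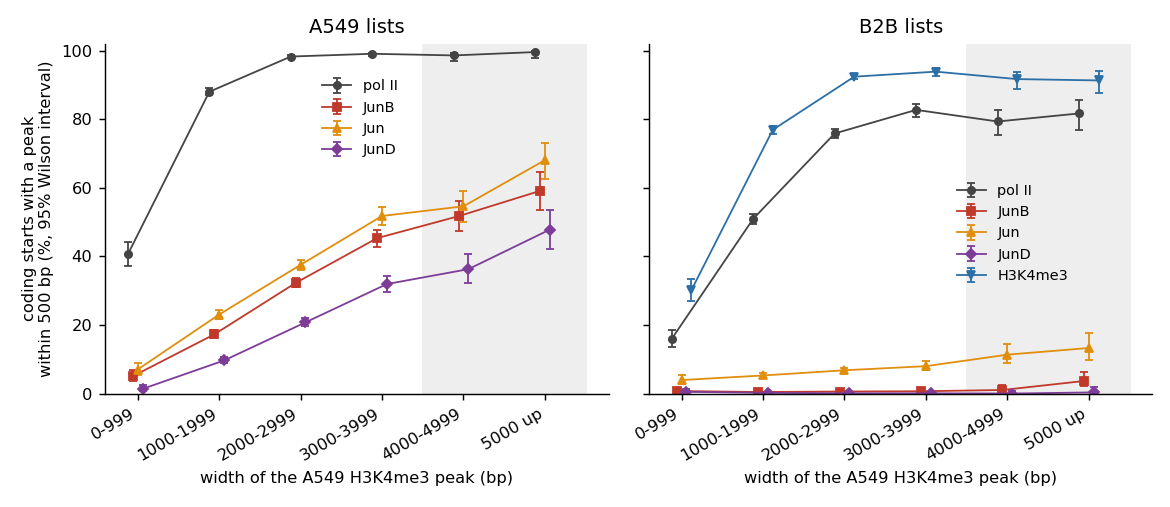
Share of coding starts (%, points with 95% Wilson intervals) that have a peak within 500 bp, by width of the A549 H3K4me3 peak at the start in bp, for the A549 lists (left) and the B2B lists (right); the shaded classes are the broad domains. A549 Jun family shares climb through every class up to 68.1% for Jun, pol II is near 99% from 3000 bp on, and in B2B Jun stays at or below 13.3% and JunB and JunD at or below 3.65%.

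The same starts in B2B had few Jun family peaks, and the difference by width was smaller there in percentage points. B2B JunB was found at 2.04% of domain starts and 0.602% of mid-width starts (difference 1.43 points, interval 0.62 to 2.69), B2B Jun at 12.1% and 7.08% (5.01 points, 2.80 to 7.55) and B2B JunD at 0.127% and 0.0651% (0.062 points, -0.084 to 0.65). The single domain start with B2B JunD, named after its value was seen, was that of LMNA, the gene of the nuclear lamins A and C. The A549 difference exceeded the B2B difference in all 3 proteins: by 17.6 points in the case of JunB (13.7 to 21.4), by 13.7 with Jun (9.25 to 17.9) and by 17.1 with JunD (13.5 to 20.8). All B2B shares were low, so these differences in points do not compare the relative change with width between the lines.

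Over whole domains, 68.7% overlapped a JunB peak in A549 and 6.81% in B2B, against backgrounds of 26.2% and 3.84% of all A549 H3K4me3 peaks, which are narrower and give less room for an overlap. For Jun the shares were 75.8% and 35.2% (backgrounds 30.7% and 15.0%), and for JunD 53.1% and 1.96% (backgrounds 13.3% and 2.12%). The paired differences between the lines were 61.9 points for JunB (58.6 to 65.0), 40.6 for Jun (36.9 to 44.1) and 51.1 for JunD (47.7 to 54.4). When both lists of a protein were shortened to equal length by p, the JunB difference was 19.95 points (17.2 to 22.8), so its size depended on the longer A549 list, and the values for Jun and JunD were 43.8 and 46.0. In A549, 390 domains (45.0%, background 10.4%) overlapped peaks of all 3 proteins and 141 overlapped none, while in B2B 305 overlapped any of the 3. There were 436 domains (50.3%) with a Jun family peak in A549 and none in B2B, and 15 (1.73%) with the reverse, against backgrounds of 22.6% and 1.84% of all A549 H3K4me3 peaks.

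The 6 domains with the strongest Jun family peaks were at TRIB1, VIM, TAGLN2, KRT80, ANXA2 and GPAT3. At TRIB1, the gene of a pseudokinase, the best A549 peaks of JunB, Jun and JunD had fold enrichments of 70.1, 69.3 and 24.96. The best B2B peaks of JunB and Jun there had 2.55 and 5.20, with no B2B JunD peak. At VIM, the gene of the intermediate filament vimentin, the A549 values were 53.4, 50.4 and 16.0 and the B2B values 3.20 and 8.02, again with no JunD. TAGLN2, a transgelin that binds actin, had 55.3, 73.5 and 17.8 in A549, and JunB and Jun peaks of 3.02 and 6.17 in B2B. KRT80, a type II keratin, had 24.8, 81.9 and 16.0 in A549, and in B2B 5.20 with JunB and 19.5 with Jun, the strongest B2B Jun peak that overlapped these 6 domains. These KRT80 peaks crossed the edge of the domain, and their summits lay just outside it. ANXA2, an annexin, had 49.1, 57.7 and 15.3 in A549, and B2B values of 3.08 for JunB and 15.0 for Jun. The summit of that B2B Jun peak lay just outside the domain, and the B2B Jun peak near the ANXA2 start had 4.85. At GPAT3, an acyltransferase of glycerolipid synthesis, the A549 values were 46.7, 61.3 and 13.03, and B2B had no Jun family peak. Fold enrichment is relative to each list's own local background, so these values order peaks within a line and are not a ratio between lines.

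**Figure D4:**
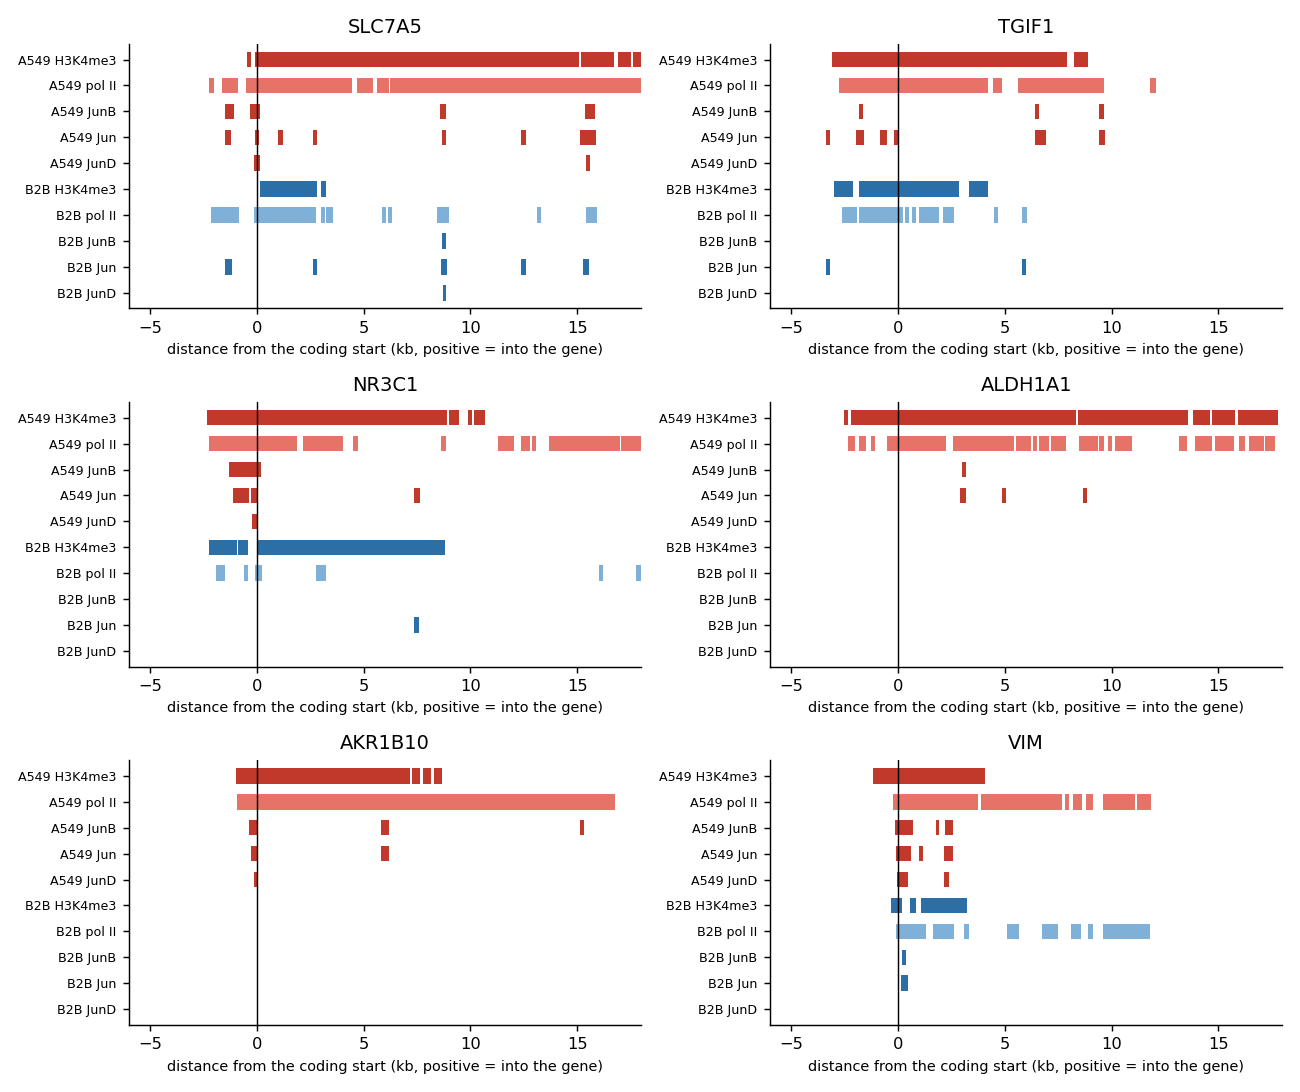
Peaks of each list (bars, 1 row per list, red A549 and blue B2B) by distance in kb from the coding start, positive into the gene, at SLC7A5, TGIF1, NR3C1, ALDH1A1, AKR1B10 and VIM. SLC7A5 carries A549 H3K4me3 over 15075 bp of the gene against a widest B2B peak of 2630 bp, NR3C1 has a B2B peak of 8787 bp, and ALDH1A1 and AKR1B10 have no B2B peak in their domains.

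Few A549 Jun family summits had the AP-1 palindrome beneath them in the domains, and this held in mid-width peaks too. TGAGTCA or TGACTCA lay within 50 bp of 21.5% of the 1019 A549 JunB summits in domains, against 53.6% of the 20848 summits outside every A549 H3K4me3 peak (difference -32.1 points, interval -34.6 to -29.4). The shares were 18.6% against 48.4% for Jun (-29.7 points, -31.9 to -27.3) and 16.0% against 46.1% for JunD (-30.1 points, -33.0 to -26.8). Distance from a coding start moved with the share. Among summits more than 500 bp from a start, domains and the regions outside H3K4me3 differed by less, at -14.8 points with JunB (-20.3 to -9.08), -19.3 with Jun (-23.5 to -14.7) and -14.8 with JunD (-22.2 to -6.48). Within domains, for JunB, 14.7% of the 729 summits within 500 bp of a start had the palindrome and 38.6% of the 290 further away (difference 23.9 points, 17.9 to 30.1), with 12.7% and 29.5% for Jun (16.8 points, 11.9 to 21.8) and 63 of 525 and 43 of 136 (31.6%) for JunD (19.6 points, 11.8 to 28.2). Near starts, the JunB and Jun shares in domains differed from those in mid-width peaks by 1.25 points (-1.47 to 4.26) and 1.17 points (-1.30 to 3.94), whereas the JunD share was higher in domains by 4.68 points (1.85 to 7.93). More than 500 bp from a start, the differences were 2.16 points for JunB (-4.46 to 8.94), -2.60 for Jun (-7.88 to 2.89) and 8.93 for JunD (-0.13 to 18.4).

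B2B JunB and JunD summits in the same regions were few but mostly sat on the palindrome, while most B2B Jun summits did not. In the domains, 46 of 55 B2B JunB summits (83.6%, interval 71.7 to 91.1) and 13 of 15 B2B JunD summits (86.7%, 62.1 to 96.3) had it within 50 bp, and 143 of 372 B2B Jun summits did (38.4%, 33.6 to 43.5). Outside A549 H3K4me3 peaks the B2B shares were 52.8% for JunB, 42.0% for JunD and 39.96% for Jun.

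Most domains were marked in B2B, but by narrower peaks. Of the 867 domains, 798 (92.0%) overlapped a B2B H3K4me3 peak, against a background of 45.1% of all A549 H3K4me3 peaks. B2B H3K4me3 lay within 500 bp of 91.6% of domain starts and 92.8% of mid-width starts (difference -1.22 points, interval -3.45 to 0.65), and B2B pol II at 80.3% and 77.6% (2.70 points, -0.40 to 5.53). Over whole domains, B2B pol II overlapped 83.0%, B2B Rad21 93.2% and B2B CTCF 64.7% (backgrounds 35.3%, 49.5% and 32.9%). Over whole mid-width peaks these shares were 76.5%, 88.9% and 42.1%. Within 500 bp of the start, Rad21 was found at 89.2% of domain starts and 89.7% of mid-width starts (-0.51 points, -2.99 to 1.62). For CTCF the shares at starts were 31.2% and 30.2% (0.97 points, -2.37 to 4.49). In 678 domains (78.2%) 2 or more B2B peaks lay in place of the single A549 peak. In mid-width peaks the share was 61.1%. A median of 57.0% of a domain was covered in B2B, against 64.1% of a mid-width peak. At fixed distances, B2B H3K4me3 reached further into the gene at domain starts. It covered 53.9% of domain starts and 13.5% of mid-width starts at 2 kb, and 19.8% and 1.93% at 3 kb. The widest B2B peak had a median width of 1873 bp. In 284 of the 655 domains with 1 coding start (43.4%), B2B peaks lay on both sides of the start and not over the start itself, and the share in mid-width peaks was 43.6%. This gap ran through the whole B2B H3K4me3 list: 11665 coding genes had a B2B peak within 500 bp of the start and 3569 had one over the start base. The part of this gap in the B2B widths was not tested. The control used for calling is not given in the sources used here, and its part in the B2B widths was not tested.

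Only 39 B2B H3K4me3 peaks reached 4000 bp, and 23 of them overlapped a domain. Among the 23 that overlapped a domain, the widest were at MALAT1 (9085 bp in B2B, 9654 bp in A549), NR3C1 (8787 and 11259 bp), NEAT1, the RNA scaffold of paraspeckles (6747 and 7270 bp), the kinase gene PLK2 (6186 and 6139 bp), the nuclear receptor gene NR2F2 (5516 and 5688 bp) and the zinc finger gene ZNF462 (5406 and 5303 bp). Because B2B peaks were narrower throughout, the 867 widest B2B peaks, all at least 2214 bp, were also compared: they overlapped 31.7% of the domains and 7.11% of the mid-width peaks (difference 24.6 points, interval 21.5 to 27.8). Regions broad in A549 thus overlapped the widest B2B peaks more often than mid-width regions did, and 68.3% of the domains overlapped none of them. Domains are wider and give more room for an overlap, and the part of that room in the difference was not tested.

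The other 69 domains (7.96%, interval 6.34 to 9.95) had no B2B H3K4me3 peak, a share close to the 8.72% of mid-width peaks without one. They had a median width of 4746 bp, the same to within 1 bp as the rest, and 55 held a coding start. The widest were ALDH1A1, CYP24A1, CPLX2, a regulator of vesicle fusion (8566 bp), AKR1B10, an aldo-keto reductase (8159 bp), ZIC2, a developmental zinc finger factor (6969 bp), TRNP1, a nuclear protein of neural progenitors (6616 bp), ELF3, an epithelial ETS factor (6601 bp), and AKR1C2, a steroid-reducing aldo-keto reductase (6537 bp). A549 pol II covered 45.9% of the domain at CPLX2, 63.9% at ZIC2, 79.7% at ALDH1A1, 87.4% at TRNP1, 97.8% at AKR1C2, 99.6% at AKR1B10 and 100% at ELF3. CYP24A1 lies on chromosome 20, where the A549 pol II list was not used. No B2B pol II peak lay in any of these 8. Other B2B marks did lie in some of them. TRNP1 had B2B H3K27ac and Med1 peaks with best fold enrichments of 11.9 and 6.86, and ELF3 had 7.59 and 4.11. ZIC2 had a B2B Med1 peak of 6.51 and no B2B H3K27ac peak, while ALDH1A1, CPLX2, AKR1B10 and AKR1C2 had neither. The AKR1C genes are close paralogs, so reads can be shared between them and their peaks are uncertain.

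The domains without B2B H3K4me3 had B2B pol II and Jun peaks less often than the others. B2B Rad21 and CTCF were less frequent too, though Rad21 was found in most of them. B2B pol II was found in 1 of 69 of them (1.45%; MISP, named after its value was seen) and in 90.1% of the 798 others, B2B Rad21 in 56.5% and 96.4% (difference -39.8 points, interval -51.6 to -28.7), and B2B CTCF in 37.7% and 67.0% (-29.4 points, -40.3 to -17.1). B2B Jun was found in 5 of 69 (7.25%, at ELF3, AKAP13, MYEOV and MISP and near LIF, the last 4 named after their values were seen) and in 37.6% of the others. In A549 itself the Jun family was less frequent there: JunB in 56.5% against 69.8% (difference -13.3 points, interval -25.4 to -1.76), Jun in 62.3% against 76.9% (-14.6 points, -26.7 to -3.69) and JunD in 29.0% against 55.1% (-26.2 points, -36.1 to -14.1). Starts of the CpG island kind made up 70.9% against 85.0% (-14.0 points, -27.3 to -3.36), with the CpG-poor stretches before ALDH1A1, AKR1C2 and ELF3 shown above as examples.

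The genes in the domains were read against fixed gene lists. Of all 20033 coding genes, 4.64% had their start in a domain, and of the 13663 with an A549 H3K4me3 peak within 500 bp of the start (68.2% of coding genes; 58.2% had a B2B peak there), 6.81% did. The lists are short, and were chosen with results of these data known, so their shares describe these genes and are not a test.

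Targets of NRF2, the transcription factor of the response to oxidative stress, had the largest share of the 20 lists. Of 25 genes, 19 (76.0%, interval 56.6 to 88.5) started in a domain. The widest were AKR1B10, the quinone reductase NQO1 (7015 bp), AKR1C2 and AKR1C3 (6269 bp), and the others included the glutathione synthesis genes GCLC (4765 bp) and GCLM (4373 bp), the cystine transporter SLC7A11 (4596 bp), thioredoxin (TXN, 5000 bp), ferritin light and heavy chains (FTL, 5411 bp, and FTH1, 4940 bp) and the pentose phosphate enzyme PGD (5334 bp). OSGIN1, ME1, SRXN1, TALDO1, PIR and the canonical start of TXNRD1 were marked by narrower peaks. These 19 domains were covered by A549 pol II to a median of 96.6% (17 domains on chromosomes 1 to 19) and by B2B H3K4me3 to a median of 22.7%, against 63.2% and 57.0% over all domains. The domains at AKR1B10, AKR1C1, AKR1C2 and ABCC2 had no B2B H3K4me3 peak. A549 Jun family peaks lay in 18 of the 19 (94.7%; TKT had none) and B2B ones in 4 (21.1%), beside 83.7% and 35.2% of all domains.

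Immediate early genes and feedback inhibitors of MAPK signalling had a share of the same size, 22 of 29 (75.9%, interval 57.9 to 87.8). The widest domains were at BTG1, an antiproliferative gene (9054 bp), the MAPK phosphatase genes DUSP5 (8770 bp) and DUSP4 (7627 bp) and MYC (7401 bp). All 22 domains overlapped an A549 Jun family peak, 15 of them (68.2%) all 3 proteins, and 13 (59.1%) overlapped one in B2B. The same shares over all domains were 83.7%, 45.0% and 35.2%. Unlike the NRF2 targets, these domains were covered in B2B to a median of 62.1%, and none lacked a B2B H3K4me3 peak. At DUSP5 the best A549 peaks of JunB, Jun and JunD had fold enrichments of 26.2, 41.1 and 12.8, and at KLF6 23.6, 68.4 and 11.6.

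Of 22 genes of the TGF-beta pathway, 11 (interval 30.7 to 69.3%) started in a domain, led by TGIF1, ID2, an inhibitor of basic helix-loop-helix factors (9035 bp), the inhibitory SMAD gene SMAD6 (7588 bp) and SKIL, a repressor of SMAD signalling (7114 bp). SMAD7 and SMAD3 followed at 7097 and 6501 bp, and the receptor genes TGFBR1 and TGFBR2 had peaks of 2126 and 3518 bp. Members in domains thus included 4 genes of inhibitors or repressors of the pathway, TGIF1, SMAD6, SKIL and SMAD7.

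Regulatory genes with smaller shares were the KLF factors (7 of 18, with KLF16 at 6050 bp and KLF7 at 5410 bp), lung and endoderm lineage regulators (10 of 28, with ID2, ELF3, NR2F2 and CEBPB at 5536 bp), YAP-TEAD targets (6 of 18, led by CRIM1 at 6945 bp and TEAD1 at 6268 bp) and the AP-1 and small Maf genes (5 of 15). The last 5 were FOSL2 (8209 bp), JUNB (5725 bp), MAFK (5602 bp), ATF3 (4855 bp) and FOS (4839 bp), while JUN and JUND had peaks of 3189 and 3718 bp. The domain at FOSL2 carried A549 peaks of JunB, Jun and JunD with fold enrichments of 25.5, 48.5 and 9.51. Of the lineage regulators, 2 of the 10 in domains had no B2B H3K4me3 peak, ELF3 among them, and NKX2-1, FOXA1 and FOXA2 had A549 peaks of 2400, 2724 and 3628 bp.

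Growth factor receptor genes (6 of 24, with IGF1R at 6623 bp, EPHA2 at 4790 bp, EGFR at 4457 bp and FGFR1 at 4360 bp), tumour suppressor genes (9 of 39, with NFKBIA at 4794 bp and KMT2D at 4773 bp) and epithelial and mesenchymal genes (5 of 22, with KRT8 at 7648 bp) had shares from 22.7% to 25%. The list of oncogenes of the study held 618 symbols, more than the paper states for its oncogene set, and 612 were matched. Of the 612 matched genes, 90 were in domains (14.7%, interval 12.1 to 17.7). An A549 Jun family peak lay in 75 of these 90 domains (83.3%) and a B2B one in 36 (40%), shares close to those of all domains (83.7% and 35.2%).

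**Figure D5:**
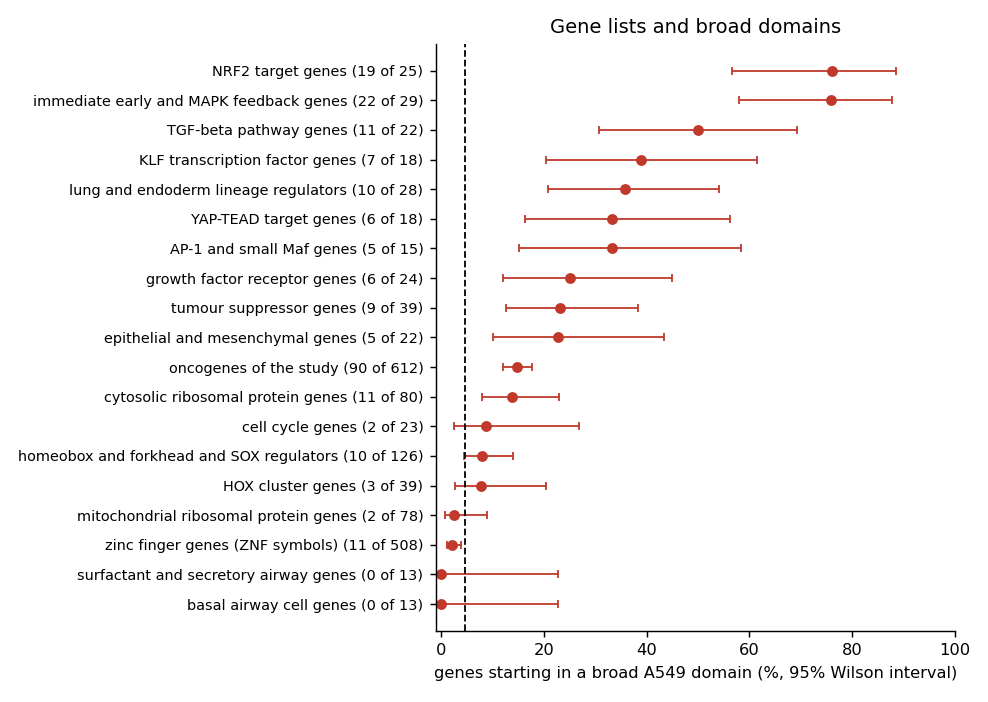
Share of the genes of each list (%, points with 95% Wilson intervals, counts in the labels) whose canonical start lies in a broad A549 H3K4me3 domain; the dashed line is the share of all coding genes, 4.64%. NRF2 targets and immediate early genes are near 76%, and the points of zinc finger, mitochondrial ribosomal protein, basal airway and surfactant genes are below the line. Of these, only the interval of the zinc finger genes leaves out the line.

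Widely expressed genes were nearly all marked, and their shares in domains differed. All 23 cell cycle genes had an A549 H3K4me3 peak at the start and 2 were in domains (8.70%, interval 2.42 to 26.8), CDK6 (7141 bp) and CCND1 (6937 bp). Of 80 cytosolic ribosomal protein genes 77 were marked and 11 were in domains (13.8%, interval 7.85 to 22.97, above the 4.64% of all coding genes), led by RPL23A (6750 bp), and of 78 mitochondrial ribosomal protein genes 77 were marked and 2 were in domains (2.56%, interval 0.71 to 8.88), MRPL18 and MRPS34. Zinc finger genes with ZNF symbols had 11 of 508 in domains (2.17%, interval 1.21 to 3.84), below the 4.64% of all coding genes. HOX genes had 3 of 39, all in the HOXB cluster (HOXB6, HOXB7 and HOXB8), and the wider class of homeobox, forkhead and SOX regulators had 10 of 126, led by FOXC1 (5453 bp). None of 13 basal airway genes and none of 13 surfactant and secretory airway genes was in a domain (interval 0 to 22.8% for each). In each of these lists 4 of the 13 had an A549 H3K4me3 peak at the start.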

How the data were processed

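Each deposited list held the peaks of 2 merged replicates. Per the labels and the study's methods, the authors aligned reads to hg38 with Bowtie2 (2.4.4), removed duplicates, merged replicates, scaled with SAMtools (1.13) and called peaks with MACS2 (2.2.7.1); the control and options are not given in the sources used here. The deposited columns were positions, a score (10 times −log10 q), fold enrichment as a ratio to local background, −log10 p, −log10 q and the summit. The read depth is unknown. The authors' values were used as deposited. Local background was solved from fold enrichment and −log10 p.

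Overlap meant at least 1 bp. Starts were the canonical transcripts of coding genes in GENCODE release 44; windows of 500 bp each way were centred on the start nearest to the H3K4me3 summit. Shares have 95% Wilson intervals, differences Newcombe intervals (paired between lines). Analyses used python 3.11.15, numpy 2.4.6, scipy 1.17.1, pandas 2.3.3, pysam 0.24.0, samtools 1.23.1 and bedtools 2.31.1, and the scripts were tested on simulated data. Genes and regions were named by a rule: the 10 widest domains, the 8 widest without B2B H3K4me3, the 6 with the strongest Jun family peaks, up to 4 per gene list (further list members are given for context), those at the threshold, the 5 widest without a start, the 4 with most pol II and the 6 with the widest B2B peaks. Members and lists were chosen with earlier results of these data known. Alternatives changed the width threshold, peak joining, q, chromosomes, windows, overlap, list length, motif window and CpG criteria. Some genes and a gene list are not reported here.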

Additional observations from a re-analysis of the deposited data

Results flagged for a closer look

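The width effect on the Jun family, measured in percentage points, differed between the lines. The share of coding starts with a peak within 500 bp, in broad A549 H3K4me3 domains minus mid-width peaks of 2000 to under 4000 bp, was larger in A549 than in B2B by 17.6 points for JunB, 13.7 points for Jun and 17.1 points for JunD, and the 95% intervals of these differences between lines (13.7 to 21.4, 9.25 to 17.9 and 13.5 to 20.8) lay above 0. The regions were chosen in A549 and the 2 lines have 1 list per protein, so line and library cannot be told apart. B2B shares were low, at 2.04% of domain starts and 0.602% of mid-width starts for JunB. They were 12.1% and 7.08% for Jun, and 0.127% and 0.0651% for JunD. From such low shares, differences in points do not show in which line the relative change was larger. The lengths of the JunB lists, 28068 peaks in A549 and 8563 in B2B, moved with the JunB value, and their part in it was not tested for this contrast. The differences between lines were not recomputed under the alternatives below.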

How the results depend on the processing

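A set of the contrasts was recomputed under up to 10 alternatives, 129 values in all. Of these, 108 kept their direction and their call, and 5 changed sign with no call in either version. A call here means that an interval leaves out 0. A comparison class of 3000 to under 4000 bp and CpG-island-like starts alone were the 2 alternatives chosen after seeing the data. Not recomputed were the differences between lines in the width effect and, at starts, the B2B Jun family, H3K27ac, Med1, CTCF and Rad21 contrasts. Contrasts by B2B H3K4me3 state, motif contrasts by distance from a start and the comparison with the widest B2B peaks were not recomputed either. The A549 Jun family contrasts at starts and the whole-domain Jun family contrasts between the lines kept their call under all alternatives run. So did the motif contrasts between domains and regions outside H3K4me3 and the CpG contrast between domains and mid-width peaks. The downstream lean stayed without a call. A549 Jun family differences at starts ranged from 7.98 to 28.2 points. A549 pol II at starts (0.50 points) had an interval above 0 with a threshold of 3000 bp (0.77), with joined peaks (0.90), over the whole peak (0.80) and around the H3K4me3 summit (1.20). B2B pol II at starts (2.70) had an interval above 0 with a threshold of 3000 bp (6.04), joined peaks (5.08), a window of 1000 bp (3.61), the whole peak (4.69), the summit (3.14) and CpG-island-like starts alone (3.54). The H3K27ac difference (-0.79) had an interval that included 0 over the whole peak (-0.29), around the summit (-0.64) and against 3000 to under 4000 bp (-0.31), and changed sign with CpG-island-like starts alone (0.054). Med1 lost its call against 3000 to under 4000 bp (2.06), and B2B H3K4me3 at starts gained one there (-2.32). The 5 sign changes without a call were B2B H3K4me3 with a threshold of 3000 bp (0.67) and around the summit (0.16), A549 pol II (-0.10) and B2B pol II (-2.49) against 3000 to under 4000 bp, and the downstream lean with joined peaks (1.04). The cause of these changes was not tested. No paired analysis was possible because each list pools the replicates of its target, and for the same reason no replicate could be left out. The unknown depth limits statements about absent peaks to the lists as called.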

Other observations

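A549 H3K4me3 peaks were also listed on unplaced sequences, 141 in all, of which 2 were at least 4000 bp wide; these were not counted among the domains. Of the 867 domains, 420 had another A549 H3K4me3 peak within 1 kb, and joining peaks less than 500 bp apart raised the number of domains with a coding start from 786 to 1150. The domains made up between 0% (chromosome Y, 45 peaks) and 3.57% (chromosome 12, 62 of 1737 peaks) of the A549 H3K4me3 peaks of a chromosome, with 1.39% on chromosome 13 and 1.29% on chromosome 22.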
